A study of Mus musculus with 3 samples.

Results

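Among the H3K4me1 sites of mouse adipocytes, 1023 tall regions carried the mark at nearly the same height in a wild-type and a LONP1-deficient library. They were found by merging the overlapping peaks of both libraries on chromosomes 1 to 19. Regions were kept if each library had a peak there and if they were shorter than 4000 bp. The highest pileup of each library, the number of overlapping fragments at a summit scaled by the authors to the tag number of the input, then had to be at least 18 in wild type and to give a knockout to wild-type ratio from 0.90 to 1.1. Of 83937 merged regions, 40924 had a peak in both libraries, 39939 of these were short enough, 10065 were tall, and 1023 of the tall ones, 10.2%, had a ratio in the band. The regions were thus chosen by the pileups of both libraries, and the heights and ratios below are a description with no test.

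Primary adipocytes came from male C57BL/6J mice. The wild-type library (WT) was from control mice, and the knockout library (AKO) from mice lacking LONP1, the Lon protease of the mitochondrial matrix, in adipocytes only. Each genotype had 1 library, immunoprecipitated with an antibody labelled H3K4me (ab8895), and 1 input library without antibody served both peak calls. The input's title ties it to the AKO library and its genotype label says wild type. The labels used here give no fat depot, no age or number of mice and no promoter for the recombinase. After removal of duplicates the WT library held 15015805 tags, the AKO library 14733950 and the input 9537585. With 1 library per genotype the spread between animals is unknown and genotype cannot be tested. Every interval below covers counting error only.

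Monomethylation of histone H3 at lysine 4 is placed mainly by the methyltransferases KMT2C and KMT2D at enhancers, and also flanks active promoters. It marks enhancers that are poised as well as enhancers that are in use, so its height does not by itself report the activity of a gene. In fat cells it accompanies the binding of lineage factors such as PPAR gamma, C/EBP proteins and EBF proteins during differentiation.

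The sequences before 4 gene starts that lay under such regions show how much the marked promoters vary in CpG content. The 5 tallest regions that covered a listed 5′ end of a protein-coding gene lay at Sgpp2, a phosphatase of sphingosine 1-phosphate, Scd4, a stearoyl-CoA desaturase, C2cd4a, a nuclear protein with a C2 domain, Tbxa2r, the thromboxane A2 receptor, and Slc24a4, an exchanger of sodium, potassium and calcium. The 250 bases before the start are given for all but Tbxa2r, 5′ to 3′ along the gene, from RefSeq on GRCm38.p6 (mm10). They span chr1:78310096-78310345 (plus strand) for Sgpp2, chr19:44333076-44333325 (plus) for Scd4, chr9:67832331-67832580 (minus) for C2cd4a and chr12:102128477-102128726 (plus) for Slc24a4. Capitals mark matches on either strand to any of 10 motifs named below.
Sgpp2: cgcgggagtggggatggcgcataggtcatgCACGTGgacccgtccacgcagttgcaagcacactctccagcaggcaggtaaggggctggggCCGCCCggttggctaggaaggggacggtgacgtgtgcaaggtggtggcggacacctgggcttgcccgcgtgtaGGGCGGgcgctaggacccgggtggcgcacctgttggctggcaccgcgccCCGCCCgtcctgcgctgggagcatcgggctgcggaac
Scd4: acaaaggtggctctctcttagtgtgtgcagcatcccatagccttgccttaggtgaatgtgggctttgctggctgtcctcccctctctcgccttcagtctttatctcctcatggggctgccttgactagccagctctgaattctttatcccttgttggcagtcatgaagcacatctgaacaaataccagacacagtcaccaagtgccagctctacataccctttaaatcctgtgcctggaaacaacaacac
C2cd4a: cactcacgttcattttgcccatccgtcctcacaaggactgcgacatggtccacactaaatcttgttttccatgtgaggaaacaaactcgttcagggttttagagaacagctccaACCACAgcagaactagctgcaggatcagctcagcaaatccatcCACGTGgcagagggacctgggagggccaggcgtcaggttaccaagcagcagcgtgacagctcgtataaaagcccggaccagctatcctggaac
Slc24a4: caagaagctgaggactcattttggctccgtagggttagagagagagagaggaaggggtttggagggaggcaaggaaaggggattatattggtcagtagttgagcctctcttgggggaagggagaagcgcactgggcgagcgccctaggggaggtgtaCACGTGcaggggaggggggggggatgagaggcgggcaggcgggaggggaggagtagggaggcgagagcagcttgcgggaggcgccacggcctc
The Sgpp2 promoter was rich in CpG, with 34 CpG in the 300 bases from 250 before to 50 after the start, and held 3 matches to the SP/KLF box GGGCGG and 1 to the E-box CACGTG. The Scd4 promoter had 3 CpG and no match to any of the motifs searched. C2cd4a, with 14 CpG, held 1 E-box and 1 RUNX match (TGTGGT), and Slc24a4, also with 14 CpG, held 1 E-box. Over all 20084 listed promoters of protein-coding genes on the same chromosomes, 47.0% held GGGCGG, 7.89% held CACGTG and 14.8% held TGTGGT, with a median of 14 CpG. The other 7 motifs searched were TGANTCA (AP-1, in 7.06% of listed promoters), TTGCNNAA (C/EBP, 10.3%), CCGGAAG (ETS, 11.9%) and those of EBF (0.981%), CTCF (0.682%), the PPAR direct repeat (0.0448%) and NFI (0.0349%). Matches to different motifs may overlap, and a match is a run of letters and not a binding site. Of the genes with an end under a region of near-equal height, 73.7% have a listed promoter, which is under 80%, so a comparison of promoter composition over all such genes is void and was left out.

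In WT the Sgpp2 region (chromosome 1, 78309944 to 78311425) reached a pileup of 30.5 from 48 fragments, and in AKO 31.7 from 49 fragments. Both summits lay just inside the gene, 70 and 88 bases past its start. At Scd4 (chromosome 19, 44332342 to 44333689) the pileup was 29.9 in WT and 31.7 in AKO, with summits at −528 and −720 bases from the start. C2cd4a (chromosome 9, 67830557 to 67832646) had 29.2 and 26.5, Tbxa2r (chromosome 10, 81327746 to 81330980) 28.6 and 25.9, and Slc24a4 (chromosome 12, 102128036 to 102130113) 27.95 and 25.9. The AKO peak at Sgpp2 was 827 bp wide against 1447 bp in WT, so a summit of like height stood on a narrower peak. At Scd4 the widths were 1326 bp in WT and 1334 bp in AKO.

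Across the 1023 regions the WT pileup ran from 18.4 to 47.0 with a median of 20.3, and the AKO pileup from 16.8 to 45.3 with a median of 20.1. These medians rest on 32 and 31 fragments at the summit. In 758 regions AKO had the lower pileup and in 265 the higher. The median AKO to WT ratio was 0.953, against 0.713 over all 10065 tall shared regions and 0.860 over all 39939 shared regions of the same length limit.

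**Figure D1:**
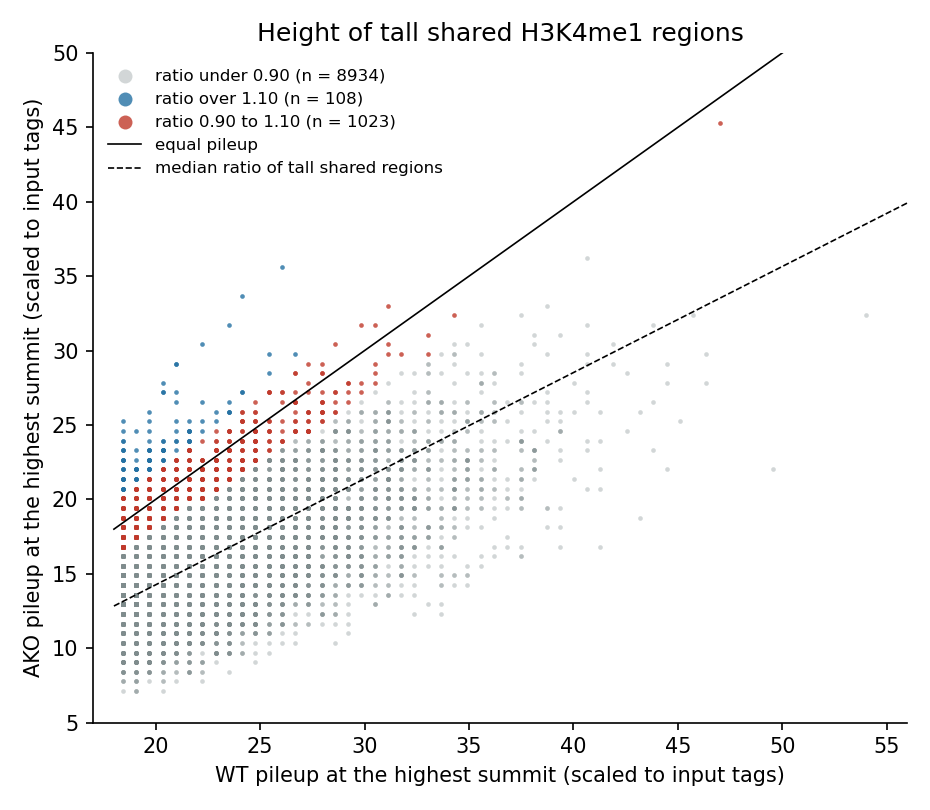
Pileup at the highest summit in WT (horizontal) and AKO (vertical), both scaled to the input's tag number, for each of 10065 tall shared regions; 1 point is 1 region, and points overlap because fragments are whole numbers. The 1023 regions with a ratio from 0.90 to 1.1 lie along the line of equal pileup, above the dashed line of the median ratio, 0.713.

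Near-equal height was uncommon among regions chosen for a tall WT peak. The band took in 10.2% of the tall shared regions, while 88.8% lay under it and 1.07% over it. It took in 31.7% of the shared regions with a WT pileup under 18. Among tall regions the share fell with WT height, from 16% at a WT pileup of 18 to under 20, through 9.64% at 20 to under 22 and 9.37% at 22 to under 25, to 3.73% at 25 and over. The limit was set on WT alone, whose pileup is also the divisor of the ratio. With the limit of 18 on the AKO pileup in its place, 1028 of 3878 regions, 26.5%, were in the band. Over all shared regions under the length limit, tall or not, the share was 26.3%. With the limit of 18 on the mean of both pileups, 960 of 6241 regions were in the band and 5049 under it. The share thus depended on which pileup set the limit. Whether tall regions as such have a lower share was not tested.

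At these depths no single region could be shown to be unchanged. The 95% counting interval of the ratio had a median lower bound of 0.567 and a median upper bound of 1.63, and in 0 of the 1023 regions did it lie inside the band. In all 1023 it held both a ratio of 1 and the median ratio of tall regions, 0.713. Of the 8934 tall regions under the band, 7471 also had an interval that held 1. The regions are therefore called here regions of near-equal height and not of unchanged height.

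The limits of the rule cut through a continuous range. Just inside the lower limit were a region in Ncs1 and a region in Sipa1l3, both with 43 WT and 38 AKO fragments and a ratio of 0.901. Just outside it were regions in or nearest Adamts4 and Tmem63a, both with 34 and 30 fragments and a ratio of 0.899. At the upper limit, regions in or nearest Camsap1 and Ppie were inside with a ratio of 1.09, and Fbln7 and Ankrd11 outside with 1.102. At the height limit, Fhl2 and Tns1 were inside with 29 WT fragments, and Lrrfip1 and Hdac4 outside with 28.

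Of the 12 tallest regions, 9 had their summit in a protein-coding gene and 3 outside. The highest was inside Hjurp, which loads the centromeric histone, and the overlapping Mroh2a (chromosome 1, 88261617 to 88263456), with a pileup of 47.0 from 74 fragments in WT and 45.3 from 70 in AKO. Its fold enrichment over local background, as the authors' files list it, was 5.95 for the WT peak and 5.77 for the AKO peak, below the lower quartiles of 6.47 and 6.25 over all 1023 regions. The local background implied by pileup and fold enrichment was 7.07 in WT at this region, the highest of the 1023, against a genome background of 1.39. The part of the input in this height was not tested. Only 15 of the 1023 regions had a WT background over 3 times the genome value. Paxillin (Pxn), an adaptor of focal adhesions, held the next one (chromosome 5, 115528667 to 115531795), with pileups of 34.3 and 32.4 and fold enrichments of 7.06 and 9.02.

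The region at Fndc10 (chromosome 4, 155694801 to 155697626) had 49 WT and 51 AKO fragments, and that in Lrch4 (chromosome 5, 137630082 to 137633492) had 52 and 48 fragments. Lrch4 had the largest WT fold enrichment of the 1023 regions, 14.3, with 13.5 in AKO. A region 40.2 kb from the homeobox gene Dlx4 (chromosome 11, 95185468 to 95187811) had 49 and 47 fragments with fold enrichments of 13.5 and 13.2. Pear1, a receptor of platelets and endothelium, had 50 and 46 fragments (chromosome 3, 87758777 to 87760606). Arhgap23, a GTPase-activating protein gene, had 48 and 45 (chromosome 11, 97451247 to 97454938), with summits 2256 bp apart. On chromosome 18, Ctif, a translation initiation factor, had 49 and 46 (75464710 to 75465910), and Mbp, the gene of myelin basic protein, 45 and 47 (82484461 to 82486665). The remaining one of the 12 tallest lay 162 kb from any protein-coding gene, the nearest being Cypt12 (chromosome 3, 17785523 to 17787955), with 52 and 46 fragments. There the WT peak spanned 2433 bp and the AKO peak 955 bp, although the summits stood 99 bp apart. Even for the most deeply covered of the 12, the Hjurp region, the ratio of 0.964 had an interval from 0.685 to 1.36.

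**Figure D2:**
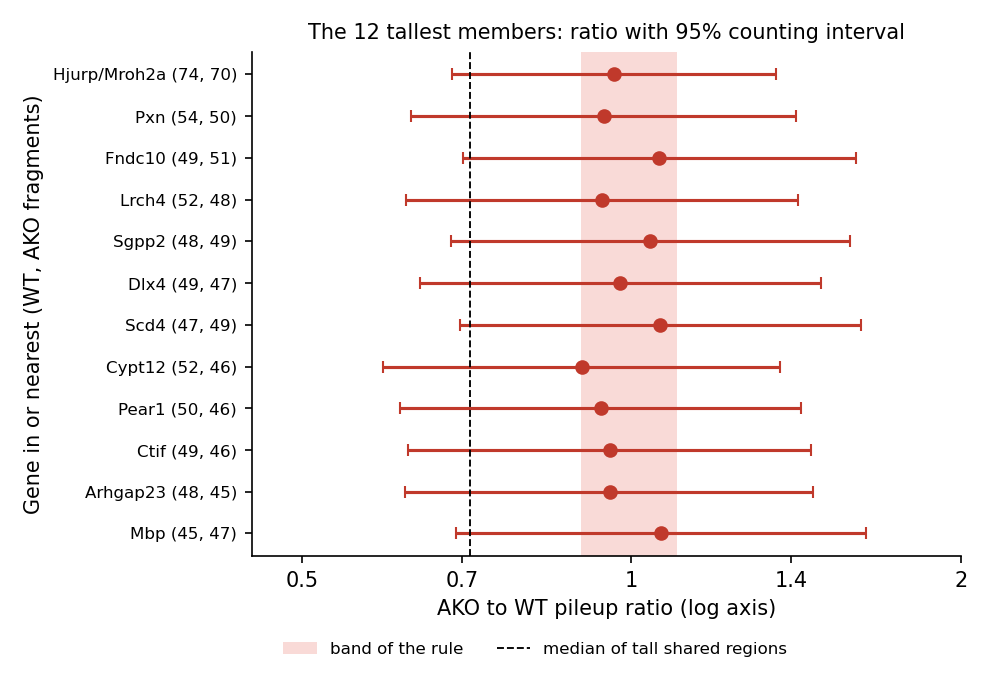
AKO to WT pileup ratio (log axis) of the 12 regions with the highest lower pileup, named by the gene they lie in or nearest to, with WT and AKO fragments in parentheses; bars are exact binomial 95% intervals of counting error, the shaded band is 0.90 to 1.1 and the dashed line is 0.713. Every bar crosses the dashed line and reaches past both edges of the band.

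Regions of near-equal height lay away from gene starts more often than the tall regions that were lower in AKO. A region was counted at a gene end if it came within 1 kb of a listed 5′ end of a protein-coding gene, or of either end of a gene with no listed one. This held for 174 of the 1023 regions, 17.01% (Wilson 95% interval 14.8 to 19.4), for 2589 of the 8934 tall regions under the band, 29.0% (28.0 to 29.9), and for 13 of the 108 over it, 12.04% (7.17 to 19.5). The gene interior held 65.1% of the regions of near-equal height (62.1 to 68.0) and 50.7% of those under the band (49.6 to 51.7). The remaining 17.9% and 20.4% were elsewhere. Seen from the other side, 6.27% of the tall regions at gene ends were in the band, 12.6% of those in gene interiors and 9.05% of those elsewhere. The median distance to a gene end was 12.7 kb for the regions of near-equal height and 7.07 kb for those under the band, and 17.01% and 15.3% lay over 50 kb away.

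Position was not used by the rule, but WT height was, and the share at gene ends rose with WT pileup in both classes. Within each range of WT pileup the order of the classes was the same. At 18 to under 20, 13.9% of the regions of near-equal height were at a gene end (11.1 to 17.2), against 19.99% of those under the band (18.5 to 21.6). At 20 to under 22 the shares were 15.9% (11.6 to 21.4) and 24.2% (22.4 to 26.2), and at 22 to under 25 they were 20% (15.3 to 25.7) and 30.4% (28.5 to 32.4). At 25 and over they were 29.9% (21.3 to 40.2) and 42.0% (40.01 to 44.1), where the intervals overlap. No test across animals is possible, and neighbouring regions are not independent.

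**Figure D3:**
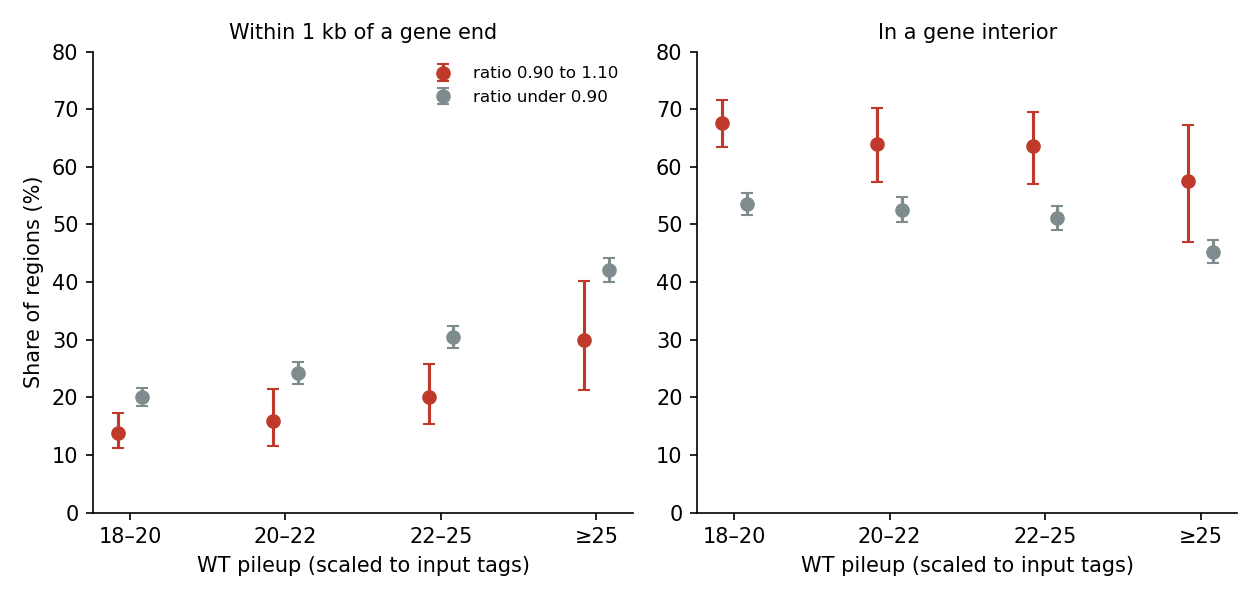
Share of regions (vertical, in percent) within 1 kb of a gene end (left) and in a gene interior (right), by range of WT pileup (horizontal), for tall shared regions with a ratio from 0.90 to 1.1 and under 0.90; bars are Wilson 95% intervals. At a gene end the first group is lower in each range, from 13.9% against 19.99% to 29.9% against 42.0%.

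Of the 500 bp steps within 5 kb of a start, the first inside the gene held the largest difference in both libraries. Measured from the nearest listed 5′ end, and without chromosome 18, which has none listed, 8.11% of WT summits of the regions under the band fell in the first 500 bp of the gene. Of the WT summits of the 1003 regions of near-equal height, 2.89% did. In AKO these shares were 7.37% and 1.99%. From 1.5 to 2 kb into the gene the shares were alike, 2.61% and 2.89% of WT summits. Within 250 bp on either side of a start lay 26 of the 1003 WT summits and 577 of 8708 under the band.

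**Figure D4:**
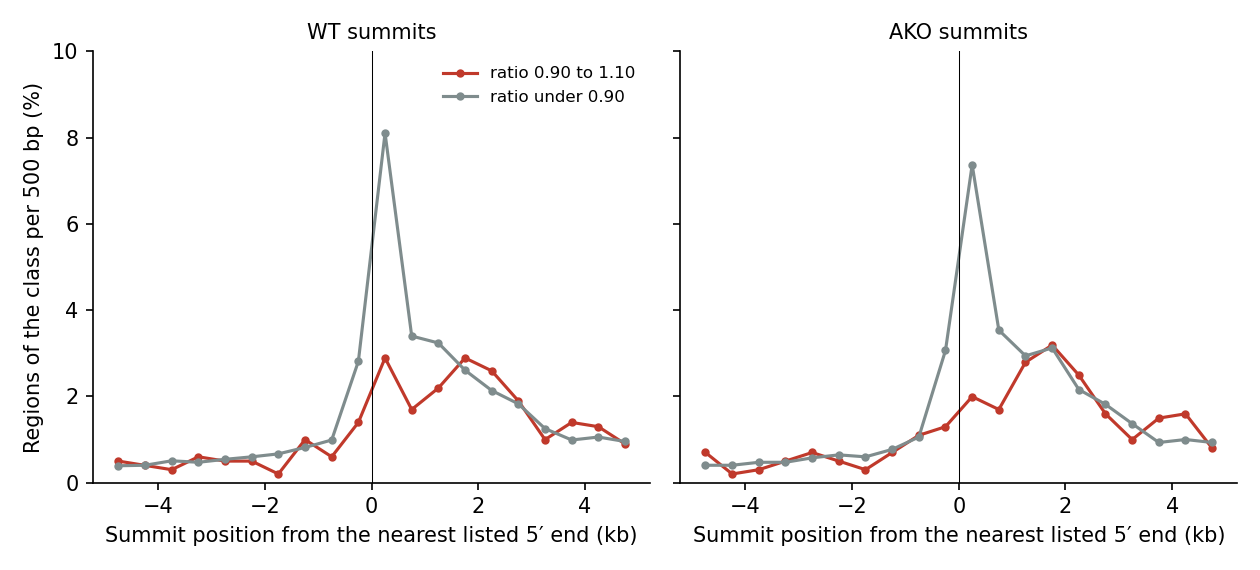
Summits per 500 bp (vertical, percent of the regions of the group) by their distance from the nearest listed 5′ end (horizontal, in kb, positive inside the gene), in WT (left) and AKO (right). Regions under 0.90 peak in the first 500 bp at 8.11% in WT and 7.37% in AKO, where regions of near-equal height reach 2.89% and 1.99%.

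The AKO peaks were narrower than the WT peaks in 742 of the 1023 regions, 72.5% (69.7 to 75.2), although their summits were of like height. The median summed width was 1817 bp in WT (order-statistic 95% interval 1727 to 1910) and 1556 bp in AKO (1479 to 1620), and the median AKO to WT ratio of width was 0.873 (0.861 to 0.889). In the tall regions under the band the medians were 1529 and 1132 bp, with a ratio of 0.784 (0.777 to 0.790). AKO was also the narrower in 83.7% of those under the band and in 77 of the 108 over it, 71.3% (62.1 to 79.0). Over the band the median ratio of widths was 0.887 (0.852 to 0.936), so narrower AKO peaks were not particular to near-equal height. Widths come from the same contrast as the rule and are a description. Within each range of WT pileup the WT peaks of the regions of near-equal height were also the wider ones, from 1570 against 1221 bp at 18 to under 20 to 2453 against 1985 bp at 25 and over.

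**Figure D5:**
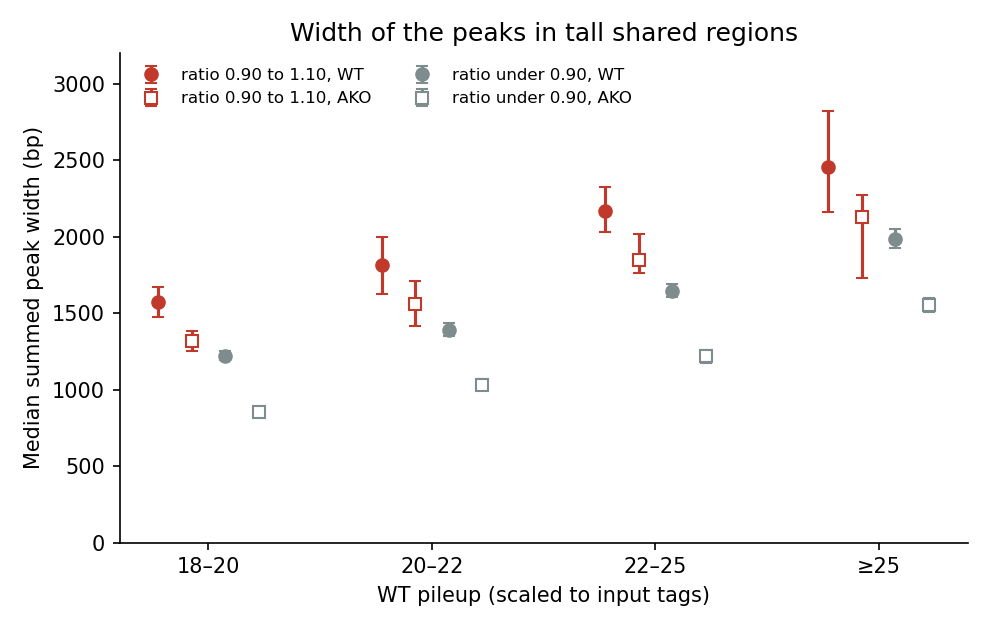
Median summed peak width per region (vertical, bp) in WT (filled circles) and AKO (open squares), by range of WT pileup (horizontal), for tall shared regions with a ratio from 0.90 to 1.1 and under 0.90; bars are order-statistic 95% intervals of the median. In each range the AKO median is below the WT median, and regions of near-equal height are wider than those under the band.

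The peaks of both libraries lay largely on the same ground, part of which was given in advance because the rule asks for overlapping peaks. A median of 97.8% of the AKO peak length in a region of near-equal height was also in a WT peak, and 82.5% of the WT length was in an AKO peak. The highest summits were a median of 149 bp apart (133 to 167), about the same as the 149 bp of the regions under the band (143 to 154). They were within 100 bp in 398 regions, 38.9%, and over 500 bp apart in 198, 19.4%. A single peak in each library made up 703 regions. AKO had more peaks than WT in 228 regions, 22.3%, and fewer in 65. The median fold enrichment was 7.96 in WT and 7.67 in AKO, against 8.31 and 5.75 under the band. The implied local background had a median of 1.90 in WT and 1.89 in AKO at the regions of near-equal height. At those under the band it was 1.90 in WT and 1.73 in AKO.

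Other shared sites next to these regions had a median ratio like that of such sites next to tall regions under the band. Within 20 kb of the 1023 regions lay 2747 other shared regions that were not tall or were over the length limit, and their median AKO to WT ratio was 0.897 (0.886 to 0.906). Beside the tall regions under the band, 12348 such neighbours had a median of 0.892 (0.892 to 0.899). Over all 30859 such shared regions it was 0.911. The share of neighbours in the band was 30.9% and 30.5%. Of the tall neighbours, 184 of 1246 (14.8%) were in the band near a region of near-equal height and 614 of 5645 (10.9%) near one under the band, which was not tested. In all, 184 of the 1023 regions (17.99%) had another region of near-equal height within 20 kb. Of the 8934 tall regions under the band, 1043 (11.7%) had such a region within 20 kb. Of the 108 over the band, 19 (17.6%) did, so the higher share was not particular to near-equal height. These shares were not tested.

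A few genes held several of these regions. Of 4912 protein-coding genes with a tall shared region in the gene body, 745 held a region of near-equal height (15.2%), 640 of them 1, 85 of them 2 and 20 at least 3. In 453 of the 745 genes (60.8%) a tall region under the band lay in the same gene. Of all tall shared regions 88.8% were under the band, and no like share over other genes is given. Foxk1, a forkhead repressor that acts in nutrient sensing (chromosome 5, 142401497 to 142462015), held 5 of near-equal height among 10 tall regions. Their WT fragments were 48, 32, 29, 33 and 35 in order along the chromosome, and their AKO fragments 44, 34, 28, 33 and 34. The other 5 tall regions of Foxk1 were under the band. Gse1, a subunit of histone deacetylase corepressor complexes (chromosome 8, 120228501 to 120581383), also held 5, among 33 tall regions of which 27 were under the band. Slc7a5, the leucine transporter LAT1 (chromosome 8, 121881146 to 121907686), held 3, and these were all its tall regions. They lay side by side from 121895462 to 121900108, with 31, 38 and 31 fragments in WT and 31, 39 and 31 in AKO. The first ended at 121896734 and the second began at 121896885. The second ended at 121898387 and the third began at 121898656. Regions were merged only where peaks overlap, so such neighbours may be pieces of 1 stretch that were counted apart. The first 2 of Foxk1 were also close, ending at 142406356 and beginning at 142406466. Sh3pxd2b, the scaffold protein TKS4 of podosomes, held 3 among 4, and Mxra7 held 3 among 5. Of the Mxra7 regions 1 ended at 116820165 and the next began at 116820274.

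Genes of the fat cell and of its mitochondria were then looked at through lists chosen with earlier results of these data known. A gene was counted if a region of near-equal height touched its body or the 10 kb on either side, which held for 5.28% of 20661 protein-coding genes and for 16.2% of the 6726 with any tall shared region there. Of 45 thermogenic genes, 28 had a tall region, all 28 had one under the band, and 2 had one of near-equal height. Esrra, the nuclear receptor ERR alpha that drives mitochondrial genes (chromosome 19, region 6910897 to 6914752), had 42 WT and 41 AKO fragments. The region spanned 3856 bp in WT and 3282 bp in AKO. Its summit lay 10.3 kb past the start of the gene (6910977 to 6922048), near the gene's far end. Zfp516, a cold-induced activator of Ucp1 (chromosome 18), had 2 regions (82919945 to 82923340 and 82943781 to 82946075), each with 29 WT and 27 AKO fragments, among 11 tall regions of which 9 were under the band. Together they were 3 of the list's 59 tall regions, 5.08%, against 9.89% over the windows of all protein-coding genes. Among 31 mitochondrial genes 10 had a tall region and 0 had one of near-equal height.

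Of 40 genes of adipocyte identity and lipid storage, 4 of the 25 with a tall region had one of near-equal height. Srebf1, the regulator of lipid synthesis, had 2, with 46 and 43 fragments at chromosome 11, 60211727 to 60214237, and with 29 and 30 at 60214740 to 60216325. Its other 2 tall regions were under the band. Rxra, the partner of PPAR gamma, had 45 and 41 (chromosome 2, 27757690 to 27761516), but the width there was 3827 bp in WT and 1594 bp in AKO. Cebpb, an early factor of adipogenesis, had 36 and 34 at 2.37 kb before its start (chromosome 2, 167685486 to 167688500). Acsl1, a fatty acyl-CoA synthetase, was the fourth, with 29 and 30 fragments. In the list's 50 tall regions 5 were of near-equal height, 10%, close to the 9.89% over all gene windows.

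Counts were small in the stress and signalling lists. In the integrated stress response 1 of 12 genes with a tall region was counted, Chac1, a glutathione-degrading enzyme, with 36 and 33 fragments. Clock genes gave 3 of 13, among them Rora (33 and 30 fragments) and Per2 (32 and 31), each with at least 3 other tall regions under the band. AP-1 and other immediate early genes gave 3 of 18, Mafk with 2 regions (30 and 28, and 29 and 29 fragments), Klf2 (29 and 26, with the summit 1.16 kb outside the gene) and Nr4a1 (29 and 27). Enzymes that place or remove H3K4 methylation, with their subunits, gave 3 of 10. These were Kmt2b (38 and 39), Wdr5 (32 and 30, with the summit 10.1 kb outside the gene) and the demethylase Kdm1a (31 and 29). At Kmt2b the summed peak width was 1540 bp in WT and 761 bp in AKO. Fold enrichment in WT and AKO was 3.59 and 4.37 at Kmt2b, 5.18 and 3.30 at Kdm1a, and 8.54 and 8.22 at Wdr5. Only 41 of the 1023 regions, 4.01%, had a value under 4 in either library, Kmt2b and Kdm1a among them.

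The extracellular matrix list had the largest number of genes with a region of near-equal height. Of its 27 genes 17 had a tall region and 7 of these had one of near-equal height (41.2%, against 16.2% of all genes with a tall region), or 10 of 68 tall regions (14.7%, against 9.89%). Col4a1 and Col4a2, which lie head to head, share 1 of the regions, so it was counted at both. Col5a1, a fibrillar collagen chain, had 38 and 35 fragments (chromosome 2, 27889204 to 27892388), Smad3, which relays TGF-beta signals, had 3 regions with 31 and 29 at the highest, and Lamc1, the laminin gamma 1 chain, had 31 and 30. The other genes were Mmp14 and Timp3. Smad3 is a signalling gene and not a matrix protein, and it gave 3 of the 10 regions and 9 of the 68 tall ones. Col4a2 alone had 17 tall regions. Whether the list stands apart was not tested.

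Other lists had few. Progenitor and fibroblast genes gave 2 of 12 genes with a tall region, Tcf7l2 (33 and 35 fragments) and Zfp423 (29 and 26). Housekeeping genes gave 3 of 10, Ppia (44 and 41), Chmp2a (40 and 38) and Rps18 (32 and 29), with summits 9.40, 9.31 and 10.3 kb outside the gene. Endothelial genes gave 1 of 10 (Mmrn2), lymphocyte genes 1 of 6 (Cd79a, with its summit 5.03 kb outside the gene), genes of other tissues 1 of 6, macrophage genes 0 of 6 and muscle genes 0 of 7. Defining markers of several cell types carried shared regions. These were 6 of 7 for adipocytes (Fabp4 had none), 4 of 5 for macrophages and 2 of 4 for lymphocytes. For endothelium they were 5 of 5, for fibroblasts and progenitors 4 of 4 and for skeletal muscle 3 of 4. Tall regions lay at fewer, 2 adipocyte, 3 macrophage, 1 lymphocyte, 2 endothelial, 2 fibroblast and progenitor and 2 muscle markers. None of these held a region of near-equal height, against 16.2% of all genes with a tall region. Shared regions thus lay at markers of each of these cell types, and their presence does not set the labelled cell type apart. Lonp1 had 5 shared regions, 1 of them tall, and 0 of near-equal height. No label used here says which part of the gene was deleted, so this does not check the knockout.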

How the data were processed

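H3K4me1 ChIP-seq peak lists of 1 WT and 1 AKO library were used as deposited. The submitters' processing notes list MACS2 2.2.1, Bowtie2 2.2.5, FastQC 0.11.3, bcl2fastq and the build mm10. The lists were written by MACS 2.1.1.20160309, per the file headers, which give a q-value limit of 0.05, broad calling off, 1 input for both libraries and at most 1 tag per position. The deposited pileup signal was scaled by the authors to the input's tag number (factors 0.635 for WT and 0.647 for AKO), and divided by that factor it was whole within 0.02, which gives fragments. The deposited fold enrichment is a ratio over local background, and the deposited −log10 p and −log10 q are the caller's.

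Regions were merged where peaks overlap by at least 1 bp, on chromosomes 1 to 19, and the script was tested on simulated data (scipy 1.17.1, pandas 2.3.3, numpy 2.4.6 under Python 3.11.15). Local background was taken as (pileup + 1) / fold − 1, whose lowest value equals the input's genome average. Genes and 5′ ends came from RefSeq tables of GRCm38.p6; 79.9% of 21627 protein-coding genes have a listed 5′ end, none of them on chromosome 18. No genome of the build was used, so motifs were searched in promoters only. Shares carry Wilson 95% intervals, medians order-statistic intervals, ratios exact binomial intervals. Named were the 12 tallest regions, up to 3 genes per list (all list genes were matched by symbol), the genes with most regions, the regions next to each limit and the tallest at 5′ ends; Acsl1 and other genes beyond this rule were named after their values were seen. A few list genes are not reported here. Members and the 15 lists were chosen with earlier results of these data known. Alternatives covered the band, height and length limits, overlap, joining, peak strength, chromosome X, centring and the gene annotation.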

Additional observations from a re-analysis of the deposited data

How the results depend on the processing

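No paired analysis was possible because there is 1 library per genotype, and for the same reason no replicate could be left out. The number of regions followed the limits of the rule. It was 2835 with a wider band from 0.80, 463 with a narrower band from 0.95, 2662 with a WT pileup of at least 15, 87 with at least 25, 539 for regions shorter than 2000 bp, 578 with peaks within 1 kb joined and 2609 with the ratio centred on the median of shared regions. The other 5 settings gave 960 to 1189.

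The share at a gene end (17.01%) was 13.8% with the narrower band, 14.4% and 29.9% with a WT pileup of at least 15 and 25, 23.2% with joined peaks, 21.7% with centring, 23.3% with all annotated genes, 23.9% within 2 kb, and, chosen after seeing the data, 13.1% with listed 5′ ends alone and 19.5% with either end of every gene. It stayed below that of the tall regions under the band in each of the 12 settings compared, the reported one included, by 9.37 to 15.5 percentage points. The share in a gene interior was 61.7% and 68.7% with the wider and the narrower band, 57.5% with a WT pileup of at least 25, 56.6% with joined peaks and 59.3% with centring. The ratio of widths was 0.8595 with the wider band, 0.895 under 2000 bp, 0.843 with joined peaks, 0.850 with centring and also 0.8595 with peaks whose −log10 q reached 5. The distance between summits was 108 bp under 2000 bp and 139 to 166 bp in the other settings. Centring takes the median ratio of shared regions, 0.860, as no difference. Depth limits all of this, since a median region rests on 32 and 31 fragments.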

Other observations

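Regions of near-equal height were found on each of the 19 autosomes. Their share of the tall shared regions ran from 8.03% on chromosome 18 (20 of 249, Wilson 95% interval 5.26 to 12.1) to 13.3% on chromosome 16 (35 of 263, 9.73 to 17.9), and these intervals overlap. Adding the X chromosome added 14 tall shared regions and 0 of near-equal height.

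Hairpins of 3 miRNA genes lay within the regions. No count over the other tall regions is given, so they are named as places only. Mir6990 lay in the Esrra region with 42 WT and 41 AKO fragments, Mir7014 in a region on chromosome 3 (95732504 to 95735374) with 37 and 34, and Mir1905 in another on chromosome 3 (88534616 to 88537400) with 29 and 27.

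The 5′ end of Lhx1, a homeobox gene of kidney and head development, lay under a region with 38 WT and 34 AKO fragments, and that of Gsc2, another homeobox gene, under one with 43 and 38. The start of Bmp8a, a bone morphogenetic protein, lay under one with 36 and 32, and that of Igfbp2, a binding protein of insulin-like growth factors, under one with 40 and 36. These genes were chosen after their values were seen.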
